A study of Mus musculus with 12 samples.

Results

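The genes described here are the 3 receptors *Lgr4*, *Lgr5*, and *Lgr6*, the 4 R-spondin genes *Rspo1*, *Rspo2*, *Rspo3*, and *Rspo4*, and the 2 membrane ubiquitin ligases *Znrf3* and *Rnf43*. They were taken by symbol from a table of 51490 genes, in which all 9 are present, and the set was chosen because *Lgr5* is nearly lost upon *Srsf3* knockdown. The levels of *Lgr5* in shSrsf3 samples are therefore given as a description, without a test. Expression was measured by RNA-seq of poly(A) RNA in iMEPM cells, an immortalized line of mouse embryonic palatal mesenchyme derived from a male *Cdkn2a*-/- embryo, a deletion that all groups share. Cells stably expressed either a scramble shRNA (scramble) or an shRNA against the 3′ UTR of *Srsf3* (shSrsf3), which encodes an RNA-binding protein that regulates splicing. Serum-starved samples were collected either without ligand (-PDGF-AA) or after 1 hr of PDGF-AA, a ligand of the receptor PDGFRα, at 10 ng/mL (+PDGF-AA). There were 3 biological replicates in each of the 4 groups, 12 samples in all, and each shRNA is represented by 1 transduced line, so that a difference between lines and the knockdown cannot be told apart.

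R-spondins are secreted proteins that strengthen Wnt/β-catenin signaling. Znrf3 and Rnf43 ubiquitinate Frizzled receptors and remove them from the cell surface, and an R-spondin that bridges one of these ligases to an Lgr receptor clears the ligase, leaving more Frizzled at the surface. *Lgr5* is best known as a marker of intestinal stem cells and is itself a target of β-catenin in several tissues, as are *Znrf3* and *Rnf43*, whereas *Lgr4* is broadly expressed. In the embryonic face, *Rspo2* is required for normal palate development.

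Total counts per sample were between 30958966 and 76123359, and 15037 genes passed the low-count filter. *Srsf3*, the targeted gene, was lower in shSrsf3 samples in the absence of ligand (log2 fold change -0.34) and upon stimulation (-0.43), with no overlap between samples. By western blotting, the paper reported a larger decrease of Srsf3 protein in the shSrsf3 line than that of the RNA here. The 7 markers of palatal mesenchyme summed to between 21900 and 23500 CPM (counts scaled to the TMM-normalised library total) in every sample, most of which was *Col1a1* and *Vim*. Among them, *Pdgfra*, which encodes the receptor of the ligand, fell upon knockdown by 0.53 without and 0.36 with ligand on the log2 scale, *Prrx1* by 0.25 and 0.17, and *Msx1* by 0.93 and 1.101. *Osr2* fell by 0.82 without ligand and was at -0.43 with it (adjusted p = 0.106), *Vim* rose by 0.25 and 0.24, and *Twist1* and *Col1a1* did not pass the test. The part of these markers in the values of the 9 genes was not tested. The rate of read mapping listed in the study's methods was lowest for 3 scramble samples (replicates 1 and 2 without ligand, replicate 2 with ligand), and the comparisons were repeated without them. This left replicate 3 as the single scramble -PDGF-AA sample, assumed to vary like the other groups. Every value against that group without the 3 samples rests on it.

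Of the 9 genes, 8 passed the filter and *Rspo4* did not. Setting *Lgr5* aside, *Rspo2* and *Lgr6* were higher and *Lgr4*, *Rspo3*, and *Rnf43* were lower in shSrsf3 samples, both without and with ligand, while *Rspo1* and *Znrf3* did not pass the test in either comparison. Hence 5 of the 7 passed an adjusted p of 0.05 or less, against a background of 45.9% of all genes tested without ligand (22.2% higher and 23.7% lower) and 41.0% with ligand (20.3% higher and 20.7% lower). *Lgr6* and *Rnf43* also met the criterion for differential expression (DE), an adjusted p of 0.05 or less together with a fold change of at least 2, which 5.75% and 5.42% of all genes did. Both are at very low counts and passed the filter through the groups in which they were high, *Lgr6* through shSrsf3 and *Rnf43* through scramble samples. Neither the 5 of the 7, which includes both, nor the number DE is therefore support for a change of the set.

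**Figure D1:**
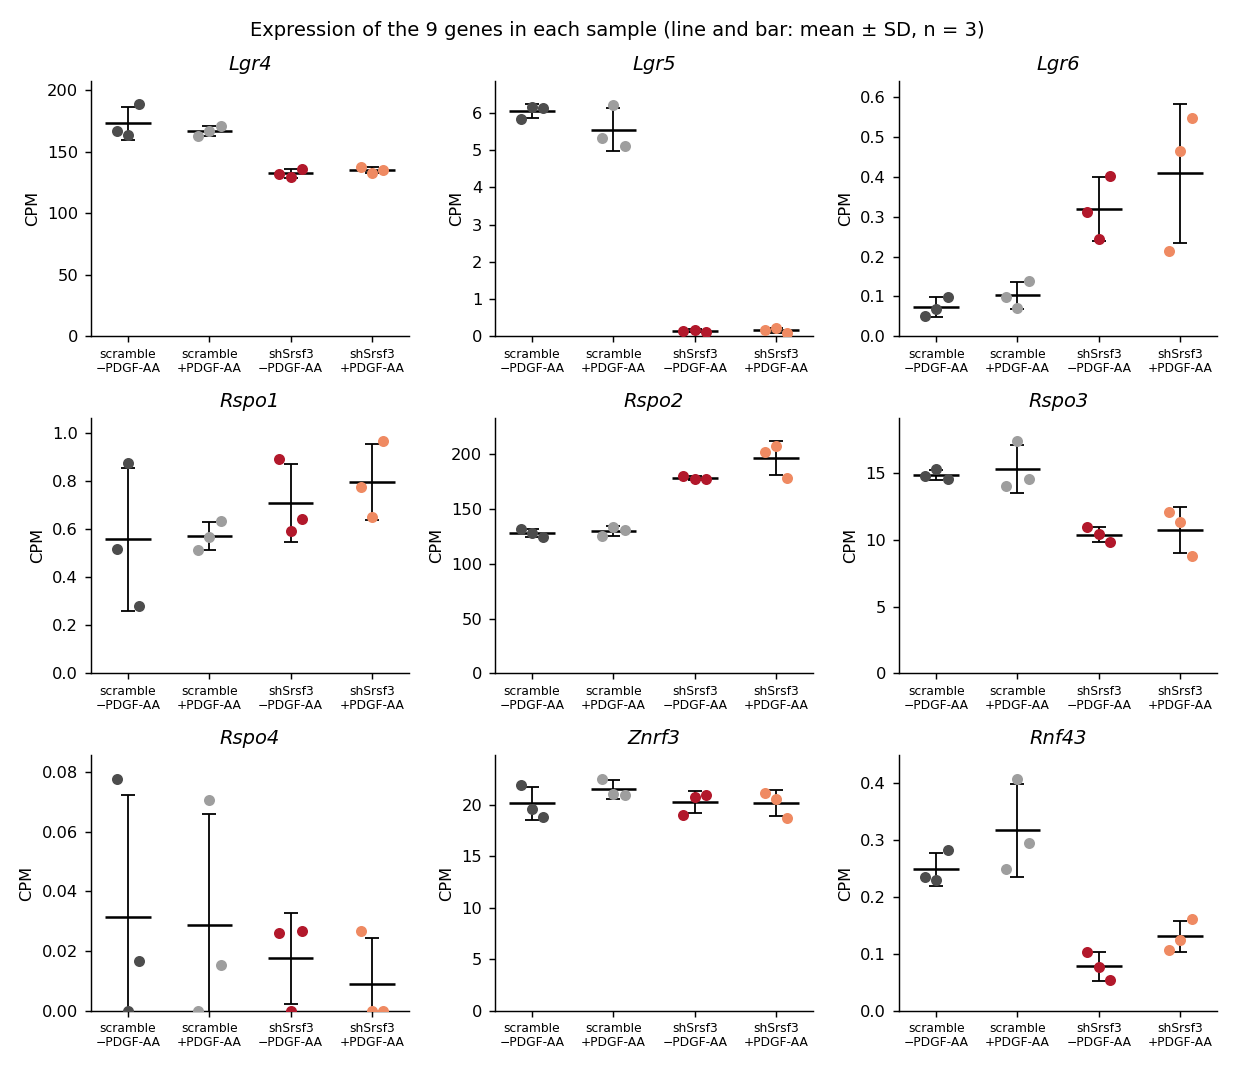
CPM (y axis, scaled for each gene) of the 9 genes in each of the 12 samples by group. Points are samples, horizontal lines are means, and bars are SD (n = 3), drawn down to 0 at most. *Lgr5* sits between 5.12 and 6.20 CPM in the 6 scramble samples and between 0.0966 and 0.217 CPM in the 6 shSrsf3 samples.

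*Lgr5* (ENSMUSG00000020140.16) lies on chromosome 10, from 115286216 to 115423685 of GRCm39, on the minus strand. In scramble -PDGF-AA replicates 1, 2, and 3 it had 5.82, 6.16, and 6.13 CPM (224, 268, and 370 counts), and in scramble +PDGF-AA replicates it had 5.33, 6.20, and 5.12 CPM (321, 350, and 331 counts). In shSrsf3 -PDGF-AA replicates the values were 0.155, 0.182, and 0.107 CPM (12, 12, and 4 counts), and in shSrsf3 +PDGF-AA replicates 0.160, 0.217, and 0.0966 CPM (6, 7, and 3 counts). The highest shSrsf3 sample was far below the lowest scramble sample, and no sample was at 0. The means were 6.04 ± 0.190 and 0.148 ± 0.0379 CPM without ligand and 5.55 ± 0.575 and 0.158 ± 0.0602 CPM with ligand (SD, n = 3). The fitted log2 fold changes of -5.27 and -5.11, or 38.5-fold and 34.4-fold lower, ranked 8th and 11th from the lowest of the 15037 genes. Without the 3 samples of lowest mapping rate they were -5.29 and -5.02. *Lgr5* was chosen for this difference and passed the low-count filter through scramble samples, so its rank is a description only.

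Markers of other cell types were examined alongside, since fewer cells of a type and less RNA per cell cannot be told apart in bulk samples. The 6 epithelial markers summed to 4.88 to 6.18 CPM in scramble and 2.91 to 4.15 CPM in shSrsf3 samples, and the 4 endothelial markers to 30.5 to 34.6 CPM and 19.1 to 22.6 CPM, respectively. Of the 3 epithelial genes tested, *Cdh1* was lower in both knockdown comparisons and the others did not pass the test. Of the 4 endothelial genes tested, 2 were higher and 1 lower in each comparison. The shares of all genes were 22.2% and 23.7% without ligand and 20.3% and 20.7% with it. Most of the endothelial sum was *Tek*, which fell by 0.61 without and 0.84 with ligand on the log2 scale. *Cdh5* rose by 2.33 and 2.82 and *Kdr* by 1.24 and 0.91, while *Pecam1* did not pass the test. The lower endothelial sum is therefore that of *Tek* and not of the list. Whether these markers have a part in the values of *Lgr5* was not tested. The 4 leukocyte markers summed to 1.23 to 2.34 CPM with *Adgre1* at 0 in every sample, the 4 skeletal muscle markers to 0.104 to 0.579 CPM with *Myod1* and *Pax7* at 0, and the 4 Schwann cell markers to 2.19 to 3.33 CPM with *Sox10* at 0.

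A second gene, the protein-coding A930009A15Rik, overlaps 13106 bases of the *Lgr5* locus on the opposite strand and was not among the genes tested. Libraries were stranded, but whether strand was used for counting is not given in the sources used here. At most 0.971% of the 31-base stretches in the transcripts of *Lgr5* occur in transcripts of another gene, and this share was lower in each of the other 8 genes.

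Because *Lgr5* is a known β-catenin target, sequence around the start sites was searched for CTTTGAT and CTTTGAA, motifs bound by the TCF/LEF factors that recruit β-catenin, on both strands; no site can match both motifs on the same strand. From 250 bases before to 50 bases after the start of the canonical transcript, 0 of the 9 genes held a match, compared with 8.48% of 21757 protein-coding genes. From 1000 bases before to 1000 after, 2 of the 9 did, compared with 48.3%. These 2 were *Lgr5* and *Rspo2*. Their sequences from GRCm39 are shown on the strand of the gene with the match in capitals. They cover chr10:115424182-115424206 on the minus strand, with the match at position -512 from the start of *Lgr5*, and chr15:43035067-43035091 on the minus strand, with the match at position -376 from the start of *Rspo2*.
Lgr5: tctttgaggCTTTGATagttgagca
Rspo2: tatcttctgTTCAAAGaggaaatac
The capitals in *Lgr5* are CTTTGAT as read on the strand of the gene, and those in *Rspo2* are CTTTGAA read on the other strand. A match is a description of the letters only.

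*Lgr4* (ENSMUSG00000050199.15; chromosome 2, 109747839 to 109844609, plus strand), the receptor with the highest level in these cells, had 167, 164, and 189 CPM in scramble -PDGF-AA replicates and 163, 167, and 171 CPM in scramble +PDGF-AA replicates. In shSrsf3 -PDGF-AA replicates it had 132, 129, and 136 CPM, and in shSrsf3 +PDGF-AA replicates 138, 133, and 135 CPM. The shSrsf3 values all lay under the scramble values, and such a separation was found in one direction or the other for 53.3% of all genes tested without ligand and 52.6% with ligand. The decrease was 1.31-fold without ligand (log2 fold change -0.39, SE 0.0490, adjusted p = 2.6e-05) and 1.23-fold with ligand (-0.30, SE 0.0492, adjusted p = 0.000241).

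*Lgr6* (ENSMUSG00000042793.15; chromosome 1, 134911039 to 135033100, minus strand), a receptor known from skin and its appendages, went in the opposite direction. It had 2, 3, and 6 counts in scramble -PDGF-AA replicates (0.0520, 0.0690, and 0.0995 CPM) and 6, 4, and 9 counts in scramble +PDGF-AA replicates (0.0997, 0.0709, and 0.139 CPM). In shSrsf3 -PDGF-AA replicates it had 24, 16, and 15 counts (0.311, 0.243, and 0.403 CPM) and in shSrsf3 +PDGF-AA replicates 8, 15, and 17 counts (0.214, 0.465, and 0.547 CPM). The groups did not overlap in CPM in either comparison. The log2 fold change was 1.99 without ligand (SE 0.456, adjusted p = 0.00294) and 1.92 with ligand (SE 0.424, adjusted p = 0.00248). Without the 3 samples of lowest mapping rate it was 1.62 in the absence of ligand and no longer passed (adjusted p = 0.0855).

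Levels of different genes were compared per kilobase (kb) of the longest protein-coding transcript. In scramble -PDGF-AA samples, *Lgr4* was at 33.0 CPM per kb, *Lgr5* at 1.28, and *Lgr6* at 0.0109. *Lgr5* thus made up 3.75% ± 0.263 of the summed level of the 3 receptors (SD, n = 3), and 0.125% ± 0.0349 in shSrsf3 -PDGF-AA samples, where *Lgr6* was at 0.185% ± 0.0416. With ligand, the share of *Lgr5* was 3.57% ± 0.381 in scramble and 0.130% ± 0.0507 in shSrsf3 samples. The summed level of the 3 receptors went from 34.3 ± 2.60 to 25.3 ± 0.688 CPM per kb without ligand and from 33.0 ± 0.806 to 25.9 ± 0.454 with ligand, and nearly all of it was *Lgr4* in each group.

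**Figure D2:**
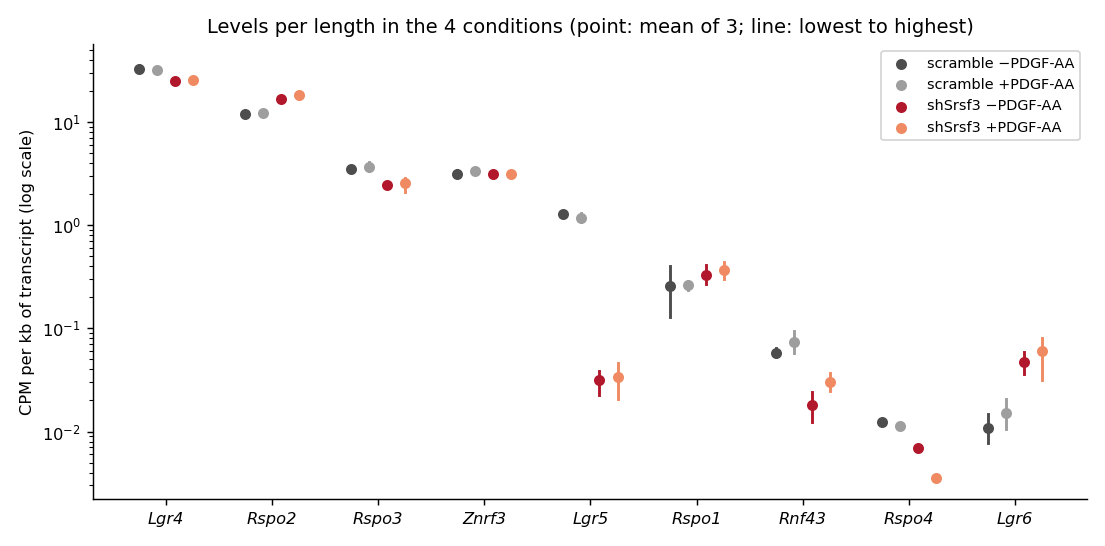
Levels of the 9 genes per length (CPM per kb of the longest protein-coding transcript, log scale) in the 4 groups, with the genes ordered by their level in scramble -PDGF-AA samples. Points are means of 3 samples and lines run from the lowest to the highest sample, except for *Rspo4*, which was at 0 in at least 1 sample of each group. *Lgr5* drops from 1.28 to 0.0315 CPM per kb without ligand, to the range of *Lgr6* and *Rnf43*.

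*Rspo2* (ENSMUSG00000051920.9; chromosome 15, 42877439 to 43034706, minus strand) was the R-spondin gene with the highest level and rose upon knockdown. It had 132, 128, and 124 CPM in scramble -PDGF-AA replicates and 126, 134, and 131 CPM in scramble +PDGF-AA replicates. In shSrsf3 -PDGF-AA replicates it had 180, 177, and 178 CPM, and in shSrsf3 +PDGF-AA replicates 202, 208, and 179 CPM. All shSrsf3 samples were above all scramble samples, by 1.39-fold without ligand (log2 fold change 0.48, SE 0.0507, adjusted p = 5.16e-06) and by 1.51-fold with ligand (0.59, SE 0.0507, adjusted p = 6.81e-07).

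*Rspo3* (ENSMUSG00000019880.12; chromosome 10, 29327285 to 29411876, minus strand), an R-spondin with known roles in blood vessels and the placenta, fell in both comparisons. It had 14.8, 15.3, and 14.6 CPM in scramble -PDGF-AA replicates and 14.1, 17.4, and 14.6 CPM in scramble +PDGF-AA replicates. In shSrsf3 -PDGF-AA replicates it had 10.97, 10.4, and 9.83 CPM, and in shSrsf3 +PDGF-AA replicates 12.1, 11.4, and 8.82 CPM. No shSrsf3 sample overlapped the scramble samples, and the decrease was 1.43-fold without ligand (log2 fold change -0.51, SE 0.101, adjusted p = 0.00101) and 1.42-fold with ligand (-0.51, SE 0.103, adjusted p = 0.00139).

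*Rspo1* (ENSMUSG00000028871.9; chromosome 4, 124879876 to 124902892, plus strand), known for its role in ovary development, was at low counts. Its values were 0.520, 0.874, and 0.282 CPM in scramble -PDGF-AA replicates, 0.515, 0.567, and 0.634 CPM in scramble +PDGF-AA replicates, 0.894, 0.592, and 0.644 CPM in shSrsf3 -PDGF-AA replicates, and 0.775, 0.650, and 0.966 CPM in shSrsf3 +PDGF-AA replicates. The groups overlapped without ligand, where scramble replicate 3 had the lowest value of all 12 samples, and did not overlap with ligand. The log2 fold change was 0.39 without ligand (95% interval -0.335 to 1.12, adjusted p = 0.367) and 0.47 with ligand (-0.262 to 1.21, adjusted p = 0.298). Without the 3 samples of lowest mapping rate, which leaves replicate 3 as the single scramble sample in the absence of ligand, assumed to vary like the other groups, it was 1.34 (adjusted p = 0.0245), and without scramble -PDGF-AA replicate 2 it was 0.89 (adjusted p = 0.0466).

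*Rspo4* (ENSMUSG00000032852.5; chromosome 2, 151684708 to 151716605, plus strand), the R-spondin required for nail formation, had 13 counts over the 12 samples. It had 3, 0, and 1 counts in scramble -PDGF-AA replicates, 0, 4, and 1 in scramble +PDGF-AA replicates, 2, 0, and 1 in shSrsf3 -PDGF-AA replicates, and 1, 0, and 0 in shSrsf3 +PDGF-AA replicates. The mean was 0.0301 CPM in the 6 scramble and 0.0132 CPM in the 6 shSrsf3 samples, and a difference was not detectable at this depth (two-sided exact permutation test within ligand conditions, p = 0.37, where 0.005 is the smallest that its 400 arrangements can give).

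Per kb, *Rspo2* was at 11.98 and *Rspo3* at 3.52 CPM per kb in scramble -PDGF-AA samples, followed by *Rspo1* at 0.256 and *Rspo4* at 0.0125. Without ligand, *Rspo2* made up 76.0% ± 0.997 of the summed R-spondin level in scramble and 85.7% ± 0.757 in shSrsf3 samples, while *Rspo3* made up 22.3% ± 0.561 and 12.7% ± 0.4998, respectively (SD, n = 3). With ligand, *Rspo2* made up 75.7% ± 1.53 and 86.3% ± 0.780. The summed R-spondin level went from 15.8 ± 0.503 to 19.5 ± 0.360 CPM per kb without ligand and from 16.1 ± 0.808 to 21.3 ± 1.77 with ligand, and the samples did not overlap in either condition.

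*Znrf3* (ENSMUSG00000041961.16; chromosome 11, 5226324 to 5394939, minus strand) was the ligase gene with the higher level and had nearly equal values in the 4 groups. It had 18.8 to 21.95 CPM in the 3 scramble -PDGF-AA samples, 20.93 to 22.6 CPM in scramble +PDGF-AA samples, 19.03 to 20.97 CPM in shSrsf3 -PDGF-AA samples, and 18.7 to 21.2 CPM in shSrsf3 +PDGF-AA samples. The groups overlapped, and the log2 fold change upon knockdown was 0.01 without ligand (95% interval -0.131 to 0.148, adjusted p = 0.927) and -0.09 with ligand (-0.231 to 0.0514, adjusted p = 0.304).

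*Rnf43* (ENSMUSG00000034177.17; chromosome 11, 87553548 to 87626377, plus strand) was at very low counts and fell. It had 9, 10, and 17 counts in scramble -PDGF-AA replicates (0.234, 0.230, and 0.282 CPM) and 15, 23, and 19 counts in scramble +PDGF-AA replicates (0.249, 0.408, and 0.294 CPM). In shSrsf3 -PDGF-AA replicates it had 8, 5, and 2 counts (0.104, 0.0759, and 0.0537 CPM) and in shSrsf3 +PDGF-AA replicates 4, 4, and 5 counts (0.107, 0.124, and 0.161 CPM). The CPM of the groups did not overlap. The log2 fold change was -1.58 without ligand (SE 0.366, adjusted p = 0.00309) and -1.27 with ligand (SE 0.362, adjusted p = 0.0121). The call with ligand was lost in DESeq2 (adjusted p = 0.0703), without the low-count filter (adjusted p = 0.0706), without the 3 samples of lowest mapping rate (-1.06, adjusted p = 0.0921), without scramble +PDGF-AA replicate 2 (-1.06, adjusted p = 0.0517), and without shSrsf3 +PDGF-AA replicate 1 (-1.14, adjusted p = 0.0654). In scramble -PDGF-AA samples *Znrf3* was at 3.14 and *Rnf43* at 0.0575 CPM per kb, and the sum of both ligases was 3.20 ± 0.25 CPM per kb in scramble and 3.18 ± 0.160 in shSrsf3 samples (SD, n = 3). With ligand the sum was 3.43 ± 0.131 CPM per kb in scramble and 3.18 ± 0.194 in shSrsf3 samples. The lowest scramble sample, at 3.337, barely exceeded the highest shSrsf3 sample, at 3.334. With lengths from the union of all exons the samples overlapped (2.653 and 2.657 CPM per kb, respectively), as those of *Znrf3* alone did.

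Over all 9 genes, the order of the levels per kb in scramble -PDGF-AA samples was *Lgr4*, *Rspo2*, *Rspo3*, *Znrf3*, *Lgr5*, *Rspo1*, *Rnf43*, *Rspo4*, and *Lgr6*. Neighbors in this order did not overlap between samples, except for *Rspo4* and *Lgr6*. In shSrsf3 -PDGF-AA samples the order was *Lgr4*, *Rspo2*, *Znrf3*, *Rspo3*, *Rspo1*, *Lgr6*, *Lgr5*, *Rnf43*, and *Rspo4*. There, *Lgr6* at 0.0472 overlapped *Lgr5* at 0.0315 CPM per kb, which in turn overlapped *Rnf43* at 0.0180.

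**Figure D3:**
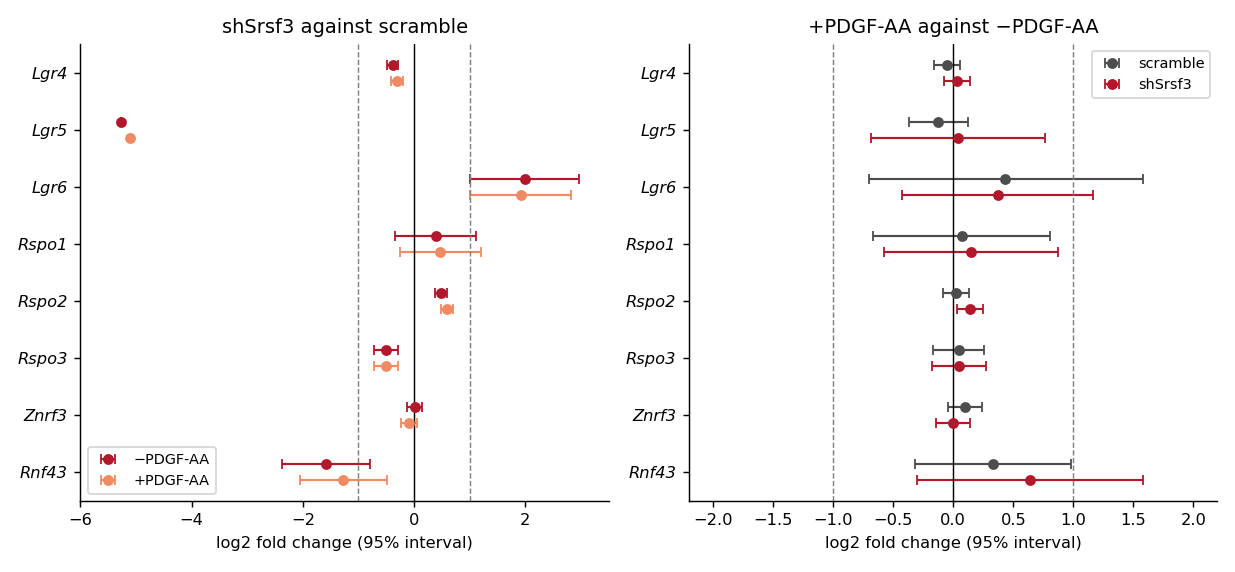
Log2 fold changes of the 8 genes that passed the filter, for shSrsf3 against scramble samples (left) and for +PDGF-AA against -PDGF-AA samples (right). Bars are 95% intervals, which are not drawn for *Lgr5* on the left because the set was chosen on that contrast, and dashed lines mark a 2-fold change. On the left *Lgr6* and *Rspo2* are to the right of 0 and *Lgr4*, *Rspo3*, and *Rnf43* to the left, and on the right every interval but that of *Rspo2* in shSrsf3 cells includes 0.

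The response to ligand was assessed by comparing -PDGF-AA with +PDGF-AA samples in each line. None of the 8 genes passed the test in scramble cells, where 4.04% of all genes did, or in shSrsf3 cells, where 0.565% did, and DESeq2 also called 0. None of the 8 had an unadjusted p under 0.05 in scramble cells, as 17.6% of all genes did, and 1 had it in shSrsf3 cells, as 9.44% of all genes did. The latter was *Rspo2*, with a log2 fold change of 0.14 (95% interval 0.0286 to 0.246, adjusted p = 0.36). Without the 3 samples of lowest mapping rate, scramble -PDGF-AA was left with replicate 3 alone, so only effect sizes are given. In scramble cells the log2 fold changes were then -0.18 for *Lgr4*, -0.23 for *Lgr5*, and 0.26 for *Lgr6*. They were 1.02 for *Rspo1* (0.07 in all samples), 0.042 for *Rspo2*, and -0.023 for *Rspo3*. *Znrf3* was at 0.21 and *Rnf43* at -0.053. For *Lgr5* in all samples, the log2 fold change was -0.12 in scramble cells (95% interval -0.368 to 0.121, adjusted p = 0.61) and 0.04 in shSrsf3 cells (-0.688 to 0.761, adjusted p = 0.994), the latter over 3 to 12 counts per sample. With all samples, the highest value was that of *Rnf43* in shSrsf3 cells, with a log2 fold change of 0.64 over 2 to 8 counts per sample (95% interval -0.303 to 1.58, adjusted p = 0.793). For *Lgr4*, *Rspo3*, and *Znrf3*, the 95% intervals in both lines lay between -0.179 and 0.276.

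Whether knockdown changed the response to ligand was tested by the interaction term. It called none of the 8 genes, with adjusted p from 0.874 to 0.998, against 2 of all genes tested (0.0133%). The lowest unadjusted p among the 8 was 0.124, so that 0 were under 0.05, compared with 5.54% of all genes, and DESeq2 also called 0. For *Lgr5* the difference between both responses was 0.16 on the log2 scale (95% interval -0.614 to 0.934, adjusted p = 0.957).

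The partners of these genes in Wnt reception were examined through lists of known pathway members. Of 15 genes of the Wnt receptor complex (Frizzled receptors, their coreceptors, and Dishevelled proteins), 14 were tested, of which 3 were higher and 6 lower without ligand and 2 higher and 6 lower with ligand. Of all genes tested, 22.2% were higher and 23.7% lower without ligand and 20.3% and 20.7% with ligand. The number higher with ligand was 4 without the 3 samples of lowest mapping rate and 1 at equal depth, without scramble +PDGF-AA replicate 3, and without shSrsf3 +PDGF-AA replicate 1. The median log2 fold change of the list was -0.10 and -0.11, compared with -0.0156 and -0.0103 for all genes tested. *Lrp5*, a coreceptor for Wnt, fell from 135.1 ± 1.82 to 57.5 ± 2.59 CPM without ligand (SD, n = 3) and from 133.8 ± 4.01 to 56.6 ± 0.810 CPM with ligand, a log2 fold change of -1.24 in both (adjusted p = 8.63e-11 and 8.1e-11). Among the Frizzled receptors, *Fzd3* fell by 1.09 and 1.23 and *Fzd1* by 0.96 and 1.01 on the log2 scale, and *Fzd8* fell by 0.48 and 0.44. *Lrp6*, the second coreceptor, fell by 0.14 with ligand (adjusted p = 0.0437) and was at -0.13 without it (adjusted p = 0.0506), while *Fzd4* (0.37 and 0.30) and *Fzd6* (0.14 and 0.25) were higher in both comparisons. The call of *Lrp6* with ligand was lost in 9 of 19 alternatives (adjusted p up to 0.202), that of *Fzd6* without ligand in 6 (up to 0.231), and that of *Fzd4* with ligand in 3 (up to 0.135).

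Targets of β-catenin were listed without *Lgr5*, *Znrf3*, and *Rnf43*, which are among the 9 genes. *Znrf3* did not pass the test upon knockdown (log2 fold change 0.01 and -0.09), while *Rnf43* fell at very low counts and *Lgr5* chose the set. Of 10 target genes of β-catenin with tested values, from a list of 16, 9 were lower and 1 higher without ligand and 7 were lower and 1 higher with ligand, where 23.7% of all genes were lower and 22.2% higher without ligand and 20.7% and 20.3% with ligand. The median log2 fold change was -0.43 and -0.38. Those lower include *Axin2*, a scaffold of the β-catenin destruction complex, which went from 2.08 ± 0.156 to 0.425 ± 0.0539 CPM without ligand (log2 fold change -2.30, adjusted p = 1.05e-06) and from 1.90 ± 0.326 to 0.417 ± 0.103 CPM with ligand (-2.18, adjusted p = 3.89e-06). *Nkd1*, an inhibitor that binds Dishevelled, went from 4.47 ± 0.471 to 1.64 ± 0.183 CPM without ligand (log2 fold change -1.46, adjusted p = 1.04e-06) and from 4.38 ± 0.571 to 1.53 ± 0.0201 CPM with ligand (-1.52, adjusted p = 1.42e-06). *Apcdd1*, a membrane inhibitor of Wnt, fell by 1.11 and 1.16 on the log2 scale. *Tcf7*, a transcription factor partner of β-catenin, fell by 0.44 without ligand (adjusted p = 0.0305) and was at -0.30 with ligand (adjusted p = 0.151). The call of *Tcf7* was lost in 8 of 19 alternatives, among them DESeq2 (adjusted p = 0.0585), no low-count filter (0.0968), only the 2 groups compared (0.0518), and without the 3 samples of lowest mapping rate (-0.34, adjusted p = 0.273). It was also lost when any of 4 single samples was left out, scramble -PDGF-AA replicates 1 and 2 and shSrsf3 -PDGF-AA replicates 2 and 3 (adjusted p from 0.0607 to 0.109). *Notum*, an enzyme that inactivates Wnt proteins, was at 2 to 21 counts per sample and fell by 1.37 and 1.53, and without the 3 samples of lowest mapping rate it was at -0.60 in the absence of ligand (adjusted p = 0.521). Without scramble -PDGF-AA replicate 2 it was at -0.80 (adjusted p = 0.238), and its call was lost in 6 of 18 alternatives without ligand and in 1 of 19 with ligand. No shSrsf3 sample exceeded 0.129 CPM of *Notum*, where the filter level was 0.198 CPM. *Notum* thus passed the filter through scramble samples, in which it was high, and its place among the lower genes is not support. The gene that was higher in both comparisons was *Cd44*, an adhesion receptor, at 0.25 and 0.30 (adjusted p = 0.00314 and 0.00102). Several of these targets act as feedback inhibitors of Wnt, and the list was chosen with values of other Wnt genes in these samples known, so that its direction is not independent evidence. Without the 3 samples of lowest mapping rate, 5 of these targets were lower without ligand.

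Heparan sulfate proteoglycans, which can hold R-spondins and Wnts at the cell surface, had 9 tested genes of 10, of which 1 was higher and 5 lower without ligand (22.2% and 23.7% of all genes) and 1 higher and 4 lower with ligand (20.3% and 20.7%). The median was -0.20 and -0.07. The glypican genes *Gpc2* (-0.77 and -0.63), *Gpc4* (-0.47 and -0.50), and *Gpc3* (-0.26 and -0.32) and the syndecan gene *Sdc2* (-0.21 and -0.24) fell in both comparisons, with adjusted p from 3.62e-07 to 0.00154. The gene that was higher was *Gpc1*, at 0.14 and 0.17, and its call without ligand was lost in 6 of 19 alternatives, among them without the 3 samples of lowest mapping rate (0.060, adjusted p = 0.398) and without scramble -PDGF-AA replicate 2 (0.087, adjusted p = 0.148).

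Of 10 other genes encoding transmembrane ubiquitin ligases with the same domain layout as Znrf3 and Rnf43, 7 were tested, of which 2 were higher and 3 lower without ligand (22.2% and 23.7% of all genes) and 2 higher and 2 lower with ligand (20.3% and 20.7%). The number lower with ligand was 1 in 5 alternatives, which were DESeq2, without the 3 samples of lowest mapping rate, and without scramble +PDGF-AA replicate 2, scramble +PDGF-AA replicate 3, or shSrsf3 +PDGF-AA replicate 1. The median was -0.17 and -0.08. *Rnf130* fell (-0.64 and -0.55), *Rnf150* rose (0.55 and 0.54), and *Rnf128* rose (0.53 and 0.45), while *Rnf167* fell without ligand (-0.46) and was at -0.22 with ligand (adjusted p = 0.0587). The remaining leucine-rich repeat receptor genes related to the Lgr family, 5 in number, were not tested because of low counts, and 3 of them had no count in any sample.

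**Figure D4:**
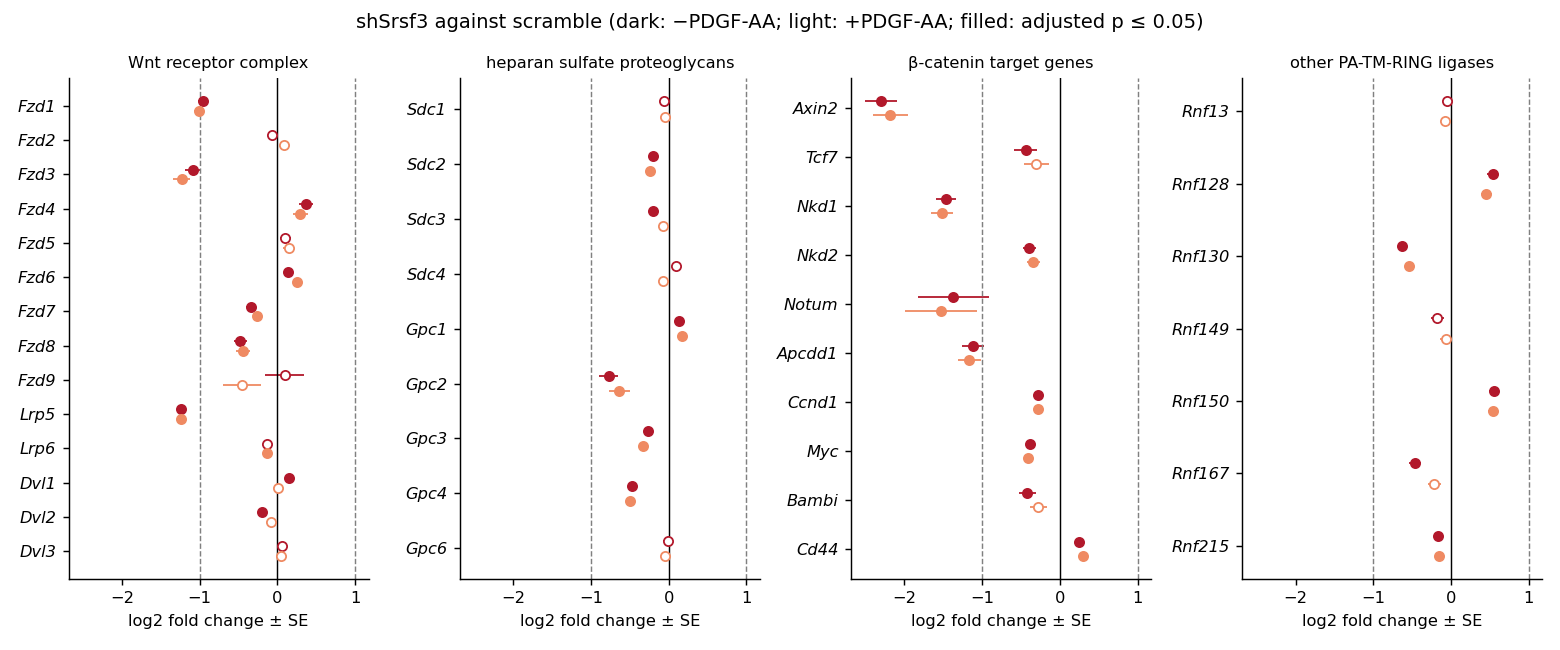
Log2 fold changes (x axis, ± SE) of shSrsf3 against scramble samples for the tested genes of 4 pathway lists, without ligand (dark) and with ligand (light). Filled points have an adjusted p of 0.05 or less, and dashed lines mark a 2-fold change. Among the β-catenin targets, *Axin2*, *Nkd1*, *Notum*, and *Apcdd1* lie beyond a 2-fold decrease in both comparisons and *Cd44* lies to the right of 0.

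Upon stimulation with ligand, 1 of 14 tested genes of the Wnt receptor complex was higher (*Dvl1*, log2 fold change 0.16, adjusted p = 0.0207) and 1 lower (*Fzd8*, -0.40, adjusted p = 0.0165) in scramble cells. Of 9 proteoglycan genes, *Sdc4* was higher (0.28, adjusted p = 0.00186), and of 7 other ligase genes, *Rnf167* was lower (-0.45, adjusted p = 0.00644). None of the 10 β-catenin targets passed the test. Of all genes tested, 4.04% passed in scramble cells. None of the tested genes of these 4 lists passed the test in shSrsf3 cells, where 0.565% of all genes did. The difference in calls between the lines is not read as a result. The call of *Dvl1* was lost in 7 of 19 alternatives and that of *Fzd8* in 3, whereas *Sdc4* and *Rnf167* passed in all 19. In 1 of the 19, without the 3 samples of lowest mapping rate, scramble -PDGF-AA was left with replicate 3 alone. The log2 fold changes were then 0.14 for *Dvl1* and -0.34 for *Fzd8*.

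The genes whose pattern over the 12 samples was most like that of *Lgr5*, by Pearson correlation of log2 CPM among 12257 genes with a mean count of at least 50, were *Serpina3n* (r = 0.998), *Igfbp5* (r = 0.997), *Kif26b* (r = 0.997), *Cdhr1* (r = 0.997), and *Nrp2* (r = 0.997). Since *Lgr5* has 1 level in each line, genes that differ between the lines in the same direction correlate with it, and 10.5% of the genes had r over 0.9. *Kif26b* went from 89.0 ± 5.34 to 11.7 ± 0.618 CPM and *Igfbp5* from 110.8 ± 4.59 to 17.7 ± 0.107 CPM without ligand (SD, n = 3). *Nrp2* went from 183.6 ± 3.89 to 60.9 ± 1.101 CPM, *Serpina3n* from 44.1 ± 1.34 to 14.1 ± 0.924 CPM, and *Cdhr1* from 14.6 ± 0.669 to 3.07 ± 0.245 CPM. All 5 had a smaller fold difference than *Lgr5*.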

How the data were processed

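Poly(A) RNA-seq of 12 samples was analysed at the level of genes. Per the study's methods, the authors quantified reads with Salmon 1.4.0 on GENCODE M26 (GRCm39) and summed them to genes with tximport, and they deposited estimated counts (expected counts, 16.3% of values not whole). Counts were rounded here, filtered with filterByExpr (minimum count 10), scaled by TMM, and tested with edgeR 4.0.16 quasi-likelihood fits over all 12 samples (R 4.3.3), with Benjamini-Hochberg adjustment over 15037 genes. The fits were tested on simulated data, where 88.66% and 83.51% of 2-fold and 100% of 4-fold changes were recovered without and with ligand among 14878 genes. SE is the log2 fold change divided by the square root of F, and is approximate at low counts. Positions and lengths are from GENCODE M39 (GRCm39). Besides the 9 genes and *Srsf3*, genes were named by rule: in each pathway list, up to 4 with a mean count of at least 50, an adjusted p of 0.05 or less and the largest change without ligand, and the 5 most like *Lgr5*. *Cd44*, *Lrp6*, *Fzd4*, *Fzd6*, *Gpc1*, *Notum*, *Dvl1*, *Sdc4*, and the mesenchyme markers were named after their values were seen. Members and lists were chosen with earlier results of these data known. In 18 pairs, same-numbered samples of different groups deviated together with r from -0.142 to 0.201, over 0.1 in 2 pairs, so replicate numbers were not treated as pairs. The p-values measure the spread between samples of 1 line per shRNA.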

Additional observations from a re-analysis of the deposited data

How the results depend on the processing

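Of 619 alternative log2 fold changes of the 9 genes over 19 alternatives, 584 kept their direction and their side of the threshold, as did 1342 of 1405 for the other named genes. The first count includes the knockdown values of *Lgr5*, and the second those of the 5 genes picked as most like *Lgr5*. These values had no test, only a direction that the choice of the genes had fixed. Both counts are therefore a description and not support. With ligand, only 1 gene besides *Lgr5* was DE instead of 2 in DESeq2 (1), without the low-count filter (1), at equal depth (1), and without the 3 samples of lowest mapping rate (1), and 1 to 2 were DE when single replicates were left out. Without ligand the number was 1 at equal depth, where *Rnf43* was not tested because of low counts. Values that turned direction did not pass the test before or after. They were *Rspo1* upon ligand in scramble cells at equal depth (-0.30), *Rspo3* (-0.023) and *Rnf43* (-0.053) in scramble cells without the samples of lowest mapping rate, and *Znrf3* upon ligand in shSrsf3 cells with DESeq2 (0.0056), RLE size factors (0.0055), without those samples (0.0030), and with only the 2 groups compared (0.0026). When single replicates were left out, *Znrf3* ranged from -0.028 to 0.076 upon knockdown without ligand and from -0.046 to 0.051 upon ligand in shSrsf3 cells. Upon ligand in scramble cells, *Lgr4* ranged from -0.090 to 0.025, *Rspo1* from -0.28 to 0.56, *Rspo2* from -0.0011 to 0.045, and *Rspo3* from -0.054 to 0.10. Upon ligand in shSrsf3 cells, *Lgr5* ranged from -0.23 to 0.27, *Rspo1* from -0.0032 to 0.37, and *Rspo3* from -0.045 to 0.17, and the interaction for *Lgr5* ranged from -0.11 to 0.39. The cause was not tested. With lengths from the union of all exons, *Lgr5* made up 2.48% of the receptor level (in place of 3.75%) and *Rspo2* 73.4% of the R-spondin level (in place of 76.0%) in scramble -PDGF-AA samples. Lengths from the canonical transcript were added after seeing the data.

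With the replicate number as a block, the same numbers of the 9 genes passed the test, 2 higher and 3 lower in each knockdown comparison, and 6982 and 6223 of all genes in place of 6899 and 6169. At 2 to 24 counts per sample, *Lgr6* and *Rnf43* are limited by depth, and a call of *Rnf43* or *Lgr6* rests on few reads.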
